A study of Mus musculus with 9 samples.

Results

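The genes that encode the subunits of the oxidative phosphorylation machinery were examined in orthotopic Hepa1-6 tumors, a mouse liver cancer line grown in the liver. Genes were taken by name, from the prefixes Nduf (followed by a, b, c, s or v), Uqcr, Cox4 to Cox8 and Atp5, the names Sdha to Sdhd, and the mitochondrial prefixes mt-Nd, mt-Co, mt-Atp and mt-Cytb. Of 52176 named genes, 125 matched. The names took in 77 nuclear genes for subunits, 13 genes of the mitochondrial genome, 8 assembly factors of complex I that carry the name Ndufaf, 8 tissue-restricted isoforms, and 19 pseudogenes or gene copies. The 77 nuclear subunit genes comprised 37 of complex I, 4 of complex II, 8 of complex III, 11 of complex IV and 17 of complex V.

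Oxidative phosphorylation couples the transfer of electrons from NADH and succinate to oxygen with the making of ATP. Complexes I, III and IV pump protons across the inner mitochondrial membrane, complex II feeds in electrons from succinate without pumping, and complex V (ATP synthase) uses the proton gradient to make ATP. Complexes I, III, IV and V are mosaics of subunits from both genomes, whereas complex II is wholly nuclear-encoded, and hepatocytes are rich in mitochondria.

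The hosts were young adult male C57BL/6 mice, and 3 tumors of each group were sequenced. Anti-PD-1 antibody, which blocks an inhibitory receptor of T cells, or PBS was injected into the peritoneum 5 times at intervals of 4 days. Among antibody-treated mice, the 3 largest tumors were named nonresponsive and the 3 smallest were named responsive, and tumors in between were left out, so response here means tumor size at collection. Whole tumors were sequenced in bulk, and in such data fewer cells of a type and less RNA per cell cannot be told apart.

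Values were FPKM of each tumor, a fragment count scaled by transcript length and by library size. The 125 genes lay in 115 loci, where a locus is a gene or a run of neighbouring genes that the authors' software had merged into one entry in at least 1 tumor, and 25 of these loci also held other genes. Read depth was not analysed here because the files hold no counts. The median half-width of the Cufflinks confidence interval of the member entries at FPKM 1 or more was 7.14% to 8.87% of the value across the 9 tumors. Entries without a gene name took 19.2% to 81.5% of the summed FPKM, and the sum over named entries was 765576 to 814452 in responsive, 651110 to 716227 in nonresponsive and 683779 to 743126 in PBS tumors. Named entries therefore carried more FPKM in every responsive tumor than in any other tumor, and the changes below are given beside the median of all loci. Levels and overlaps of single loci are on the FPKM scale as deposited unless a rescaling is named. Hepatocyte markers such as albumin were not even between tumors. The mean log2(FPKM + 1) of 28 hepatocyte loci was 4.23, 6.92 and 7.33 in PBS, 8.49, 7.45 and 6.72 in nonresponsive, and 9.36, 8.22 and 8.74 in the responsive tumors.

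The mitochondrially encoded members came first in level. The mitochondrial genome is transcribed as long precursors, and the files hold 11 of its 13 mRNAs together with the ribosomal and transfer RNAs in a single polycistron entry. The entry stood at 8242, 7202 and 7590 FPKM in the PBS tumors, 6892, 8452 and 6828 in the nonresponsive tumors, and 12225, 11109 and 10276 in the responsive tumors. On this scale all 3 responsive tumors lay above the other 6. The mt-Cytb gene, which encodes cytochrome b of complex III, was listed alone, at 5305, 4702 and 5116 FPKM in PBS, 5174, 6004 and 4642 in nonresponsive, and 9595, 7067 and 7314 in the responsive tumors. Again the responsive tumors overlapped with neither of the other groups on the deposited scale. As a share of the FPKM of named entries, both entries together took 1.98%, 1.68% and 1.71% in PBS tumors. The share was 1.68%, 2.22% and 1.65% in nonresponsive tumors and 2.75%, 2.37% and 2.16% in responsive tumors. By that share responsive tumor 3 lay below nonresponsive tumor 2, so the antibody groups overlapped. The mt-Nd6 entry, the gene on the opposite strand, was listed at 0 in all 9 tumors.

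**Figure D1:**
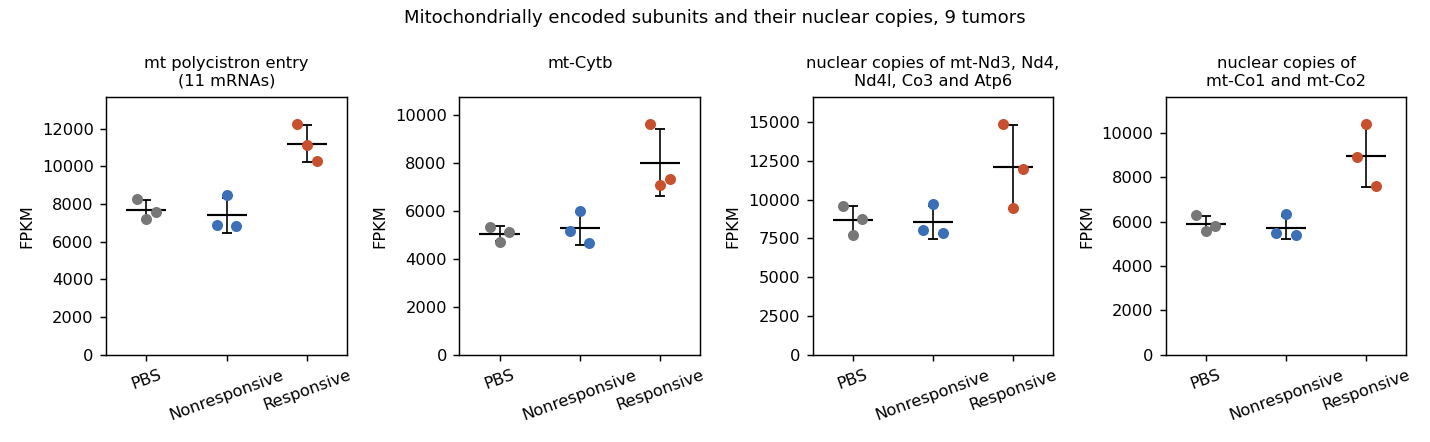
FPKM (vertical axes, from 0) of the polycistron entry, mt-Cytb and the 2 entries of nuclear copies in 3 PBS, 3 nonresponsive and 3 responsive tumors; points are tumors, horizontal lines the mean and error bars the SD. The responsive tumors lie above the other 6 in the polycistron, mt-Cytb and the copies of mt-Co1 and mt-Co2, while in the remaining copies the lowest responsive tumor, at 9425, lies below the highest nonresponsive tumor, at 9727.

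The mean of mt-Cytb was 7992 ± 1394 FPKM (SD, n = 3) in responsive, 5273 ± 687 in nonresponsive and 5041 ± 308 in PBS tumors. On the log2(FPKM + 1) scale the responsive tumors exceeded the nonresponsive tumors by 0.59 ± 0.37 (SE), with a limma p of 0.159 and a Benjamini-Hochberg adjusted p of 0.963. Against PBS the difference was 0.65 ± 0.34, with a limma p of 0.107 and an adjusted p of 0.313. The polycistron gave 0.60 ± 0.39 against nonresponsive tumors (limma, adjusted p = 0.966) and 0.54 ± 0.36 against PBS (limma, adjusted p = 0.396). Exact two-sided permutation tests gave p = 0.1 for each of these 4 contrasts, the smallest value that 3 tumors against 3 allow, so none passed the test. Nonresponsive and PBS tumors overlapped in both entries, with differences of 0.06 for mt-Cytb and -0.06 for the polycistron.

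Much of the polycistron has near-identical copies in the nuclear genome, and a stretch of one is shown to let the likeness be read. In the GRCm38 annotation (GENCODE M21), 7 unprocessed pseudogenes on chromosome 1 share at least 90% of their 50-base words with a mitochondrial mRNA. The closest pairs shared every word, as Gm28661 did with mt-Co2, Gm28437 with mt-Co3, Gm10925 with mt-Atp6, Gm28439 with mt-Nd4 and Gm10222 with mt-Nd4l. Gm28438 shared 99.0% with mt-Nd3, and Gm29216 shared 97.1% with mt-Co1. The stretches below are the 5′ end of Gm29216 on the reverse strand of chr1:24616138-24616197 and the matching part of mt-Co1 on chrM:6381-6440 (GRCm38, forward strand), with differing bases in capitals.
mt-Co1: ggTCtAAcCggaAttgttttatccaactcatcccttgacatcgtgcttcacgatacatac
Gm29216: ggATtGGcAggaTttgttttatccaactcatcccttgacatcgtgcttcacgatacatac
Over the 492 aligned bases of Gm29216 there were 6 differences, all inside the stretch shown. By contrast, none of the 50-base words of mt-Cytb, mt-Nd1, mt-Atp8 or mt-Nd6 was found in an annotated nuclear transcript, and 7.61% of those of mt-Nd5 and 8.19% of those of mt-Nd2 were.

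The copies were listed at levels like those of the mitochondrial genes. Gm28661 and Gm29216 formed one entry, at 6279, 5564 and 5822 FPKM in PBS, 5467, 6332 and 5385 in nonresponsive, and 8900, 10381 and 7596 in the responsive tumors. With the 5 other copies, the sum of copies was 13256 to 15841 in PBS, 13225 to 16059 among nonresponsive and 19591 to 23747 among responsive tumors. Adding the copies to the polycistron gave 24083, 20458 and 22163 FPKM in PBS, 20370, 24511 and 20052 in nonresponsive, and 35972, 30916 and 29868 in the responsive tumors. On the deposited scale the responsive tumors again stood clear of the rest. Relative to the sum over named entries, responsive tumor 3 lay below nonresponsive tumor 2, so the antibody groups overlapped. How the authors' software divided reads between the mitochondrial genes and these copies was not tested, and mt-Cytb, which had no such copy in the annotation, is the measured mitochondrial entry without one.

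Within each tumor, mt-Cytb was set against the mean of the 56 nuclear subunit loci that share no entry with another gene, a difference that scaling of a whole tumor leaves nearly as it is. On the log2(FPKM + 1) scale mt-Cytb exceeded that mean by 5.30, 5.41 and 5.23 in PBS, 5.34, 5.75 and 5.098 in nonresponsive, and 6.01, 5.47 and 5.85 in the responsive tumors. The responsive tumors lay above all 3 PBS tumors, and the range overlapped with that of the nonresponsive tumors, since responsive tumor 2 stood below nonresponsive tumor 2.

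The nuclear-encoded subunits spanned a wide range of levels, with means from 877 FPKM down to 37.1 for Ndufv1 and 5.25 for Ndufs1. Their order of mean level over the 9 tumors opened with Atp5b, the catalytic beta subunit of ATP synthase (877 FPKM, in an entry shared with Naca), and Atp5e, its epsilon subunit (721, shared with Prelid3b). Atp5md (546), Cox8a (545, shared with Otub1), Cox6a1 (495) and Cox6c (493) followed. The ranges of neighbouring genes in this order overlapped: Atp5e ran from 592 to 846 FPKM across tumors and Atp5md from 470 to 693. By complex, the median FPKM of the subunits in a tumor was 78.2 to 127 for complex I, 75.9 to 103 for complex II, 175 to 293 for complex III, 217 to 312 for complex IV and 221 to 298 for complex V. Complexes III, IV and V thus stood above complexes I and II in every group.

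In the comparison of responsive with nonresponsive tumors, which bears on what distinguishes tumors that stayed small under antibody, 93 of the 115 member loci passed the filter (FPKM of at least 1 in 3 or more of the 6 tumors). Of the 77 nuclear subunit loci, all but Ndufs1 passed. None of the 93 loci reached an unadjusted limma p under 0.05 in either direction, where 4.36% of all 12716 loci tested did so for higher and 1.56% for lower values. No member passed the adjusted threshold of 0.05, which 0.0629% of all loci did, and the lowest adjusted p among the members was 0.856 (limma with Benjamini-Hochberg adjustment). Without nonresponsive tumor 1 the count at an unadjusted p under 0.05 was 5 of 93 (5.38%, against 11.4% of all loci in that fit), and without responsive tumor 2 it was 1 of 92 (1.09%, against 6.95%). The 3 responsive tumors lay above the 3 nonresponsive tumors at 14 of the 93 loci (15.1%, against 5.69% of all loci tested) and below them at 0 (against 4.78%). These counts were taken on the deposited scale, where named entries carried more FPKM in every responsive tumor. They were not taken after rescaling to named entries. Relative to the sum over named entries, responsive tumor 3 stood below nonresponsive tumor 1 at Ndufs5, Ndufv1, Uqcrq, Uqcrh, Ndufa4 and Ndufaf1. By that measure the antibody groups overlapped at these genes. The loci were measured in the same 6 tumors and are not independent of each other.

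The sizes of the differences were small and mostly of one sign. Of 76 nuclear subunit loci tested, 69 had a difference above 0, and the median was 0.21 on the log2(FPKM + 1) scale, beside a median of -0.07 over all loci, of which 41.8% were above 0. When each tumor was rescaled to the sum of its named entries outside the mitochondrial genome, 42 of 76 were above 0 and the median was 0.01, while the median over all loci moved to -0.24. The distance between both medians was 0.27 as deposited and 0.25 after that rescaling. In both, 72 of the 76 loci lay above the median of all loci. Such rescaling moves all loci of a tumor nearly alike, so the distance and the 72 loci were bound to stay and the count above 0 to move with the common shift.

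**Figure D2:**
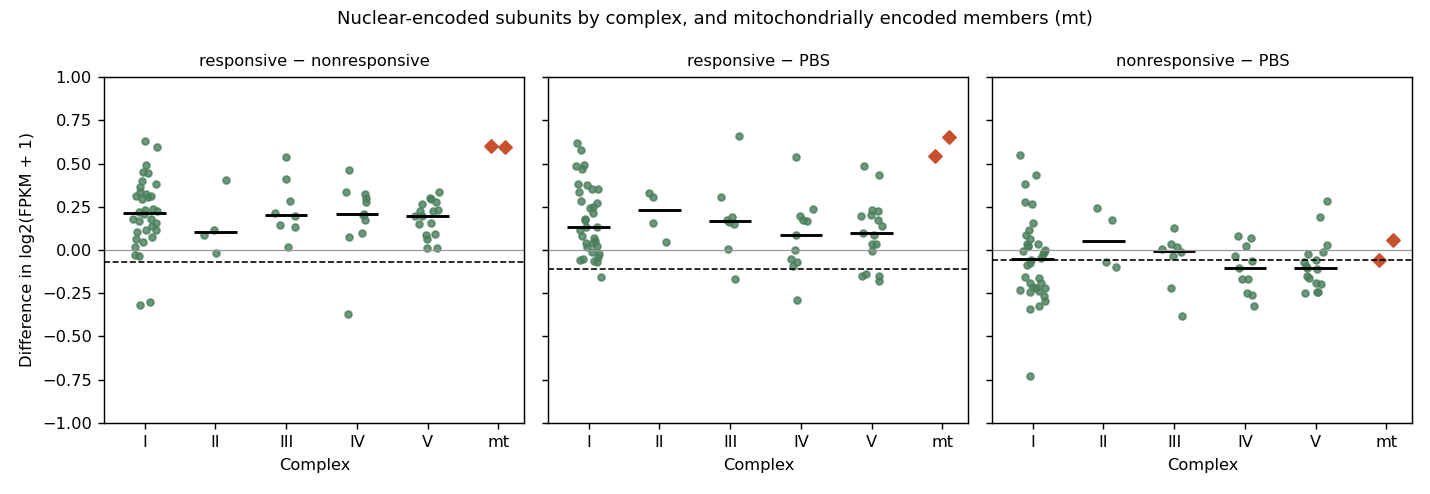
Difference in log2(FPKM + 1) (vertical axis) of each nuclear subunit locus by complex (points), with the median per complex (bars), both tested mitochondrial entries (diamonds) and the median of all loci tested (dashed line), in the 3 comparisons. Of the 76 loci in the left panel 72 lie above the dashed line, and Ndufc1, at -1.48 in the left panel and -2.20 in the middle panel, is outside the axis.

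The median difference between responsive and nonresponsive tumors was alike in the complexes with a mitochondrially encoded part, at 0.21 for complex I, 0.20 for complex III, 0.21 for complex IV and 0.19 for complex V. In complex II, which has none, it was 0.10. All 8 loci of complex III and all 17 of complex V were above 0, as were 31 of 36 in complex I, 3 of 4 in complex II and 10 of 11 in complex IV. These signs are on the deposited scale. Between responsive and PBS tumors complex II had the highest median, 0.23, with 4 of 4 loci above 0. The medians there were 0.13 for complex I, 0.17 for complex III, 0.09 for complex IV and 0.10 for complex V. Whether the complexes differ from each other was not tested.

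In complex I, the entry point for electrons from NADH, the loci whose responsive tumors all lay above the nonresponsive tumors were Ndufa8, Ndufb5, Ndufb9, Ndufb10, Ndufs5 and Ndufv1. Ndufv1, the flavoprotein that binds NADH, was listed at 37.2, 27.3 and 38.7 FPKM among nonresponsive and 44.3, 42.2 and 40.5 among responsive tumors, and at 33.5, 33.2 and 37.1 in PBS tumors. The difference between antibody groups was 0.31 ± 0.20 (SE; limma, adjusted p = 0.967). Ndufs5, an accessory subunit, stood at 116, 105 and 108 FPKM among nonresponsive and 143, 146 and 122 among responsive tumors, a difference of 0.31 ± 0.18 (limma, adjusted p = 0.931). Responsive tumor 3 was the lowest of its group at each of these 2 genes. Among the core subunits, which hold the redox centres and the quinone site, 4 of the 6 tested were above 0 with a median of 0.09, and among the 30 accessory subunits 27 were, with a median of 0.22.

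Complex III carries electrons from ubiquinol to cytochrome c. Uqcrq, a small subunit bound near cytochrome b, gave the lowest unadjusted p of the nuclear subunits in this comparison. It stood at 372, 252 and 328 FPKM among nonresponsive and 499, 478 and 394 among responsive tumors, beside 240, 284 and 347 in PBS tumors. On the deposited scale the responsive tumors lay above all 6 others. The difference from nonresponsive tumors was 0.54 ± 0.25 (SE; limma, unadjusted p = 0.0729, adjusted p = 0.856) and that from PBS tumors was 0.66 ± 0.22 (limma, unadjusted p = 0.0254, adjusted p = 0.247). Uqcrh, the hinge protein next to cytochrome c1, stood at 252, 258 and 246 FPKM among nonresponsive and 363, 384 and 271 among responsive tumors, and the PBS tumors, at 320, 270 and 293, overlapped with the responsive ones alone. Uqcr10, the complex III subunit of highest mean level (357 FPKM), overlapped in all groups, with values from 266 to 472.

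Complex II oxidises succinate and belongs to the TCA cycle as well. Its flavoprotein Sdha was listed at 77.7, 67.4 and 75.5 FPKM in PBS, 65.0, 63.2 and 77.8 in nonresponsive, and 95.3, 105 and 75.6 in the responsive tumors. Responsive tumor 3 overlapped with both other groups, and the difference from nonresponsive tumors was 0.41 ± 0.21 (SE; limma, adjusted p = 0.883). The iron-sulfur subunit Sdhb stood at 72.5, 73.4 and 83.4 in PBS, 91.4, 91.2 and 88.9 in nonresponsive, and 100.2, 89.4 and 99.6 in the responsive tumors. Here both antibody-treated groups lay above PBS, by 0.24 ± 0.16 and 0.33 ± 0.15 on the log2 scale (limma, adjusted p = 0.700 and 0.276). The membrane anchors Sdhc and Sdhd overlapped in all groups, at 78.4 to 139 and 85.0 to 112 FPKM, and Sdhd shared its entry with Nkapd1.

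Complex IV reduces oxygen. Ndufa4, now counted among its subunits despite its name, stood at 270, 219 and 276 FPKM among nonresponsive and 314, 322 and 301 among responsive tumors, a difference of 0.30 ± 0.20 (SE; limma, adjusted p = 0.971), with PBS tumors spread from 192 to 314. Cox6a1 overlapped in all groups, at 402 to 609 FPKM, as did Cox8a, at 376 to 849. Cox5b, which binds zinc, was uneven among the responsive tumors, at 89.1, 279 and 78.3 FPKM, against 101 to 229 in the others. Cox4i1, the common form of subunit 4, was not analysed here.

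In complex V, Atp5c1, the gamma subunit that forms the rotating stalk, was almost level in the responsive tumors at 159, 160.2 and 160.5 FPKM. The nonresponsive tumors stood at 130, 151 and 140 and the PBS tumors at 141, 124 and 146, all below on the deposited scale. Nonresponsive tumor 2 had the lowest sum over named entries, 651110. Relative to that sum its level was not below the responsive tumors. The differences were 0.19 ± 0.18 and 0.22 ± 0.15 (SE; limma, adjusted p = 0.978 and 0.404). Atp5b, the subunit of highest level, overlapped in all groups, at 1064, 784 and 1035 FPKM in PBS, 620, 830 and 1001 in nonresponsive, and 701, 1062 and 795 in the responsive tumors. Its partner in the catalytic head, Atp5a1, likewise overlapped, with a difference of 0.01 between the antibody groups.

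Against PBS tumors, which received no antibody, 8 of the 93 member loci tested in responsive tumors were higher at an unadjusted limma p under 0.05 (8.60%) and 1 was lower (1.08%). These shares lay at or under those of all 12715 loci tested, 9.12% higher and 10% lower. No member passed the adjusted threshold of 0.05, which 0.149% of all loci did, and the lowest adjusted p was 0.246 (limma with Benjamini-Hochberg adjustment). The groups did not overlap at 18 members that were higher (19.4%, against 11.8% of all loci) and 1 that was lower (1.08%, against 17.0%). These counts too were taken on the deposited scale alone. Of 76 nuclear subunit loci, 56 were above 0 with a median of 0.15, beside -0.11 over all loci, of which 41.6% were above 0. After rescaling to named entries, 38 were above and 38 below 0, with a median of 0.00 beside -0.24 over all loci. The count of 9 members at an unadjusted p under 0.05 (9.68%, against 19.1% of all loci) was 2 after that rescaling (2.15%, against 24.6%) and 0 without responsive tumor 1 (against 8.37%). Without PBS tumors 1, 2 and 3 in turn it was 2, 4 and 5, or 2.15%, 4.30% and 5.43% of the members, against 9.69%, 18.9% and 12.6% of all loci.

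The 6 nuclear subunits with an unadjusted p under 0.05 were Ndufa1, Ndufa6, Ndufb4, Ndufb10 and Ndufs3 of complex I and Uqcrq of complex III. Ndufa6, an accessory subunit of the LYR family that binds the acyl carrier protein, stood at 127, 123 and 136 FPKM in PBS and 225, 193 and 163 in responsive tumors. The difference was 0.58 ± 0.18 (SE; limma, unadjusted p = 0.0199, adjusted p = 0.246). The nonresponsive tumors, at 172, 115 and 129, overlapped with both. Ndufa1, a small X-linked subunit, stood at 111, 151 and 133 in PBS, 186, 94.9 and 122 in nonresponsive, and 235, 225 and 153 in the responsive tumors, so responsive tumor 3 was close to PBS tumor 2. Its difference from PBS was 0.62 ± 0.24 (limma, unadjusted p = 0.0421, adjusted p = 0.256).

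Ndufb10 was the most even of these genes within the PBS group, at 68.2, 72.0 and 67.2 FPKM, with 80.8, 68.3 and 82.6 among nonresponsive and 97.8, 112 and 84.9 among responsive tumors. The difference from PBS was 0.49 ± 0.16 (SE; limma, unadjusted p = 0.0239, adjusted p = 0.246). Ndufs3, a core subunit of the arm that faces the matrix, stood at 42.5, 47.7 and 51.0 in PBS, 57.6, 60.9 and 51.6 in nonresponsive, and 63.1, 63.9 and 57.1 in the responsive tumors. Both antibody-treated groups lay above PBS at this gene, by 0.26 ± 0.17 and 0.38 ± 0.15 (limma, unadjusted p = 0.162 and 0.0435). Ndufb4 stood at 30.7, 28.03 and 33.5 in PBS and 47.4, 43.9 and 38.9 in responsive tumors, and nonresponsive tumor 1, at 63.9, was the highest of all.

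**Figure D3:**
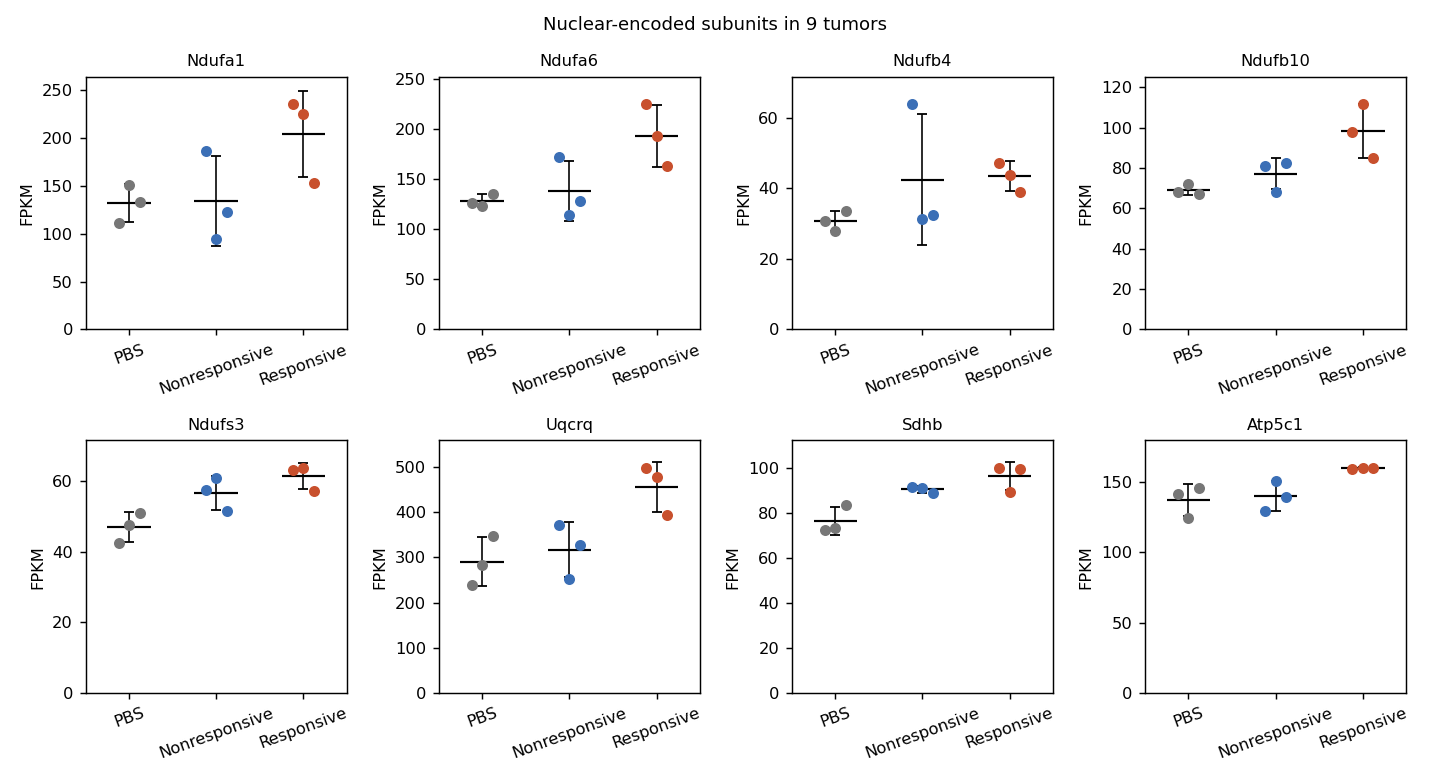
FPKM (vertical axes, from 0) of 8 nuclear-encoded subunits in 3 PBS, 3 nonresponsive and 3 responsive tumors; points are tumors, horizontal lines the mean and error bars the SD. The panels are the 6 subunits with an unadjusted limma p under 0.05 against PBS, and Sdhb and Atp5c1, chosen with their values known. The responsive tumors lie above all PBS tumors in each panel, which follows in part from that choice. They did so at 14 of 76 nuclear subunit loci tested (18.4%, against 11.8% of all loci). The nonresponsive tumors reach the responsive range in Ndufa1, Ndufa6, Ndufb4, Ndufs3 and Sdhb.

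Promoters of nuclear subunit genes are known to hold sites for NRF1, GABP (an ETS factor also named NRF2) and YY1, which are counted among the regulators of this machinery. RefSeq promoters (GRCm38.p6, 250 bases before to 50 after the start) matched 66 of the 77 nuclear subunit genes, and 3 motifs were searched on both strands. The NRF1 letters, GCGCA and GCGC with any base between, were found at 17 of 66 genes (25.8%), against 5.19% of 27025 genes, and CCGGAAG for GABP at 17 of 66 (25.8%), against 9.93%. The YY1 letters, AAGAT followed at once by GGCGG, were found at 5 (7.58%), against 0.995%. At least 1 of the 3 motifs stood at 33 of 66 genes (50%, against 14.6%). A match is a run of letters and was not examined for binding. Of the 6 subunits named above, 5 had a promoter in the table and 3 of these held a motif, and they are shown with the motifs in capitals, in gene orientation, all from the reverse strand.
Ndufa6, chr15:82354242-82354541: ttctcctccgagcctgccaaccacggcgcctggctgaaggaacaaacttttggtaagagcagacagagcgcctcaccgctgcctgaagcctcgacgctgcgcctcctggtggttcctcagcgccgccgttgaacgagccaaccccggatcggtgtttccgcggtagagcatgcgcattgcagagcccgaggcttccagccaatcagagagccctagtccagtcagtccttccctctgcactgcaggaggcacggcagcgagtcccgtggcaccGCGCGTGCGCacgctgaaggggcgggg
Ndufb4, chr16:37654319-37654618: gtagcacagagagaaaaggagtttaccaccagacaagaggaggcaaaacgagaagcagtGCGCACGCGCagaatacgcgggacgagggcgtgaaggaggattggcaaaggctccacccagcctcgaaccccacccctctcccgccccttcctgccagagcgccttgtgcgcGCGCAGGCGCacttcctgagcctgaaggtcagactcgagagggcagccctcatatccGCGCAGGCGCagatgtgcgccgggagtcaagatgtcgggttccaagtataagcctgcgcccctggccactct
Ndufs3, chr2:90904672-90904971: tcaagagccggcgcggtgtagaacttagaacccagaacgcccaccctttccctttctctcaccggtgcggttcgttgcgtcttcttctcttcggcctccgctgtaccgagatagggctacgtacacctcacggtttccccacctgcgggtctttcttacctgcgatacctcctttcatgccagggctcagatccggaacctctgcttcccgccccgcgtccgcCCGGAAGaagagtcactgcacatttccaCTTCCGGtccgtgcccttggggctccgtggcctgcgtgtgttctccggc
In Ndufa6 and Ndufb4 the capitals mark NRF1 letters and in Ndufs3 GABP letters, on one strand or the other.

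Between nonresponsive and PBS tumors, a comparison of antibody with PBS in tumors that stayed large under antibody, none of the 94 members tested had an unadjusted limma p under 0.05, where 1.57% of all 12663 loci were higher and 1.66% lower, and none passed the adjusted threshold, which 0.0395% of all loci did. The groups did not overlap at 2 members that were higher (2.13%, against 3.23% of all loci) and 5 that were lower (5.32%, against 4.86%). The median over 76 nuclear subunit loci was -0.07, with 25 above 0, beside -0.06 over all loci, of which 44.4% were above 0. The 2 higher were Ndufs3 and Sdhb, and the lower were Ndufb5, Ndufb9, Uqcrh, Cox7a2l and Ndufa4l2, named here after their values were seen. The responsive and nonresponsive comparisons with PBS share the same 3 control tumors, and so do not stand as separate evidence.

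Some members were read with difficulty by the authors' software. Ndufs1, the largest core subunit of complex I, was listed at 0 in 7 tumors and at 19.0 and 28.2 FPKM in nonresponsive tumor 1 and responsive tumor 1, and the assembly factor Ndufaf3 was likewise above 0 in these 2 tumors alone, at 9.62 and 9.47. Ndufc1 stood at 20.9 to 113 FPKM in 8 tumors and was listed at 0 in responsive tumor 3. Such zeros in genes that nearly every cell uses may be failed estimates and were read as listed values.

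The assembly factors are given by list, and whether the lists differ from each other was not tested. Of 8 loci named Ndufaf, 7 were tested, 3 were above 0 between responsive and nonresponsive tumors, and the median was -0.02. Ndufaf1, a chaperone of complex I assembly, stood at 6.82, 5.93 and 7.86 FPKM in PBS, 8.62, 7.18 and 6.76 in nonresponsive, and 10.7, 9.91 and 9.74 in the responsive tumors, and the responsive tumors lay above the other 6. Its differences were 0.39 ± 0.18 from nonresponsive and 0.50 ± 0.16 from PBS tumors (SE; limma, unadjusted p = 0.0717 and 0.0194, adjusted p = 0.856 and 0.246). Ndufaf6 was the one member lower than PBS at an unadjusted p under 0.05, at 22.1, 11.6 and 18.3 in PBS, 6.68, 12.02 and 12.5 in nonresponsive, and 7.31, 11.1 and 10.6 in the responsive tumors, a difference of -0.76 ± 0.28 from PBS (limma, adjusted p = 0.254). Of other assembly factors, outside the prefixes, 9 loci of complex I, 7 of complexes II and III, 21 of complex IV and 3 of complex V were tested between the antibody groups, and 0 had an unadjusted limma p under 0.05. The loci above 0 were 9 of 9 in the list of complex I (median 0.17), 6 of 7 in that of complexes II and III (0.12), 12 of 21 in that of complex IV (0.15) and 1 of 3 in that of complex V (-0.01). Against PBS, Timmdc1 of complex I was higher in responsive tumors, by 0.45, and Cox15, needed to make the haem of complex IV, was lower, with a difference of -0.85 (limma, unadjusted p = 0.0141 and 0.00114, adjusted p = 0.246 for both). Sco2, a copper chaperone of complex IV in an entry shared with Tymp, was also higher at an unadjusted limma p of 0.0321 (adjusted p = 0.249), being listed at 0, 0 and 19.6 FPKM in PBS tumors and at 42.4, 22.6 and 22.5 in the responsive tumors.

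The tissue-restricted isoforms were low and varied by tumor. Cox6b2, known from testis, stood at 0.675, 1.499 and 1.96 FPKM in PBS, 4.52, 1.18 and 0.561 in nonresponsive, and 3.31, 2.33 and 3.51 in the responsive tumors, against 209 to 312 for its common form Cox6b1. The difference between responsive and PBS tumors was 0.79 ± 0.28 on the log2(FPKM + 1) scale (SE; limma, unadjusted p = 0.0282, adjusted p = 0.247), and it was -0.29 with the hepatocyte level as a covariate. Cox6a2, the form of heart and skeletal muscle, was highest in nonresponsive tumor 3, at 16.2 FPKM against 0 to 3.06 in the others. The muscle form Cox8b was above 0 in 3 tumors, at 5.81 in PBS tumor 1 and 1.62 and 7.50 in nonresponsive tumors 2 and 3. Summed FPKM over 14 skeletal muscle loci was 532 in nonresponsive tumor 3 and 187 in PBS tumor 1, against 79.1 to 134 in the other 7, and the part of muscle in these isoforms was not tested.

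Cox7a1, another form of heart and muscle, did not follow that order, at 10.7 FPKM in responsive tumor 2 and 8.76 in PBS tumor 2. Cox4i2, the isoform of subunit 4 known from lung and for its response to oxygen, stood at 2.09 to 4.81 FPKM with no order by group. Ndufa4l2, an isoform induced by hypoxia, stood at 21.7, 27.4 and 21.5 in PBS, 13.1, 14.3 and 0 in nonresponsive, and 0, 33.1 and 18.9 in the responsive tumors. Of its 2 zeros 1 lay in each antibody-treated group. Cox7b2 and Cox8c were listed at 0 in all 9 tumors, and of the 19 pseudogenes and copies 3 were tested in each comparison.

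Other genes of mitochondrial function were taken from lists of assembly factors, carriers, the TCA cycle, the mitochondrial ribosome, mitochondrial DNA maintenance and regulators of biogenesis. Between responsive and nonresponsive tumors, 1 of 16 TCA cycle loci was higher at an unadjusted limma p under 0.05 (6.25%, against 4.36% of all loci). None was lower, and the median was 0.01. The higher one was Fh1, fumarase, at 22.7, 26.5 and 26.3 FPKM among nonresponsive and 65.7, 34.2 and 42.3 among responsive tumors. Of 76 mitochondrial ribosome loci tested, 1 was higher and 1 lower (1.32% each, against 4.36% and 1.56% of all loci), with a median of 0.07. The 12 loci of mitochondrial DNA maintenance gave none and a median of 0.05. The ribosomal one that was higher, Mrpl27, was listed at 0 in all 3 PBS tumors and 2 nonresponsive tumors, at 44.6 in the other nonresponsive tumor, and at 48.6 to 69.3 in responsive tumors. Between the antibody groups no ribosomal locus passed the adjusted threshold of 0.05, and the lowest adjusted p was 0.835 (limma with Benjamini-Hochberg adjustment). Against PBS, responsive tumors had 5 higher and 2 lower of 78 ribosomal loci at the same unadjusted threshold (6.41% and 2.56%). Of 16 TCA cycle loci, 0 were higher and 2 lower (12.5%), and 1 of 12 loci of mitochondrial DNA maintenance was higher (8.33%). Of all loci, 9.12% were higher and 10% lower. In that comparison 1 ribosomal locus passed the adjusted threshold (limma, adjusted p = 0.000487), the lowest value of all loci tested.

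Carriers of adenine nucleotides and phosphate with the porins had 0 of 7 loci called and a median of -0.10, and 3 loci around cytochrome c had 0 called and a median of 0.09. Among them Cyc1, which encodes the haem subunit cytochrome c1 of complex III but lies outside the prefixes, stood at 48.3, 51.3 and 60.1 FPKM in PBS, 65.8, 78.9 and 74.7 in nonresponsive, and 76.9, 62.7 and 96.7 in the responsive tumors. Both treated groups lay above PBS at this gene, by 0.45 and 0.54 (limma, unadjusted p = 0.0405 and 0.0418, adjusted p = 0.700 and 0.256). Among 11 regulators of biogenesis tested, Ppara, a regulator of fatty acid oxidation that hepatocytes express strongly, stood above its nonresponsive level in responsive tumors, by 1.01 (limma, unadjusted p = 0.0353, adjusted p = 0.835), and the median of the 11 was -0.04.

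Markers of other cell types also differed between the groups, some lists upward and some downward. Between responsive and nonresponsive tumors, 11 of 28 hepatocyte loci were higher at an unadjusted limma p under 0.05 and none lower, with a median of 1.36, and against PBS 24 of 28 were higher, with a median of 2.85. The summed FPKM of the hepatocyte list ran from 22532 to 49885 in responsive, 9148 to 30241 in nonresponsive and 1507 to 13970 in PBS tumors. With the hepatocyte level as a covariate over all 9 tumors, the median of the nuclear subunits between responsive and nonresponsive tumors was 0.28 and that of the mitochondrial entries 0.60. The T cell list held 7 of 15 loci above their nonresponsive level at that threshold, and the proliferation list 0 of 15, with a median of -0.26. Against PBS, 4 of 15 proliferation loci were lower in responsive tumors at that threshold, with 0 of 15 above 0 and a median of -1.13, 2 of 3 erythroid loci tested and 2 of 14 macrophage loci were higher, 1 of 15 T cell loci was higher, and 1 of 10 fibroblast loci was lower. Between responsive and nonresponsive tumors, macrophage, fibroblast and skeletal muscle lists each had 1 lower locus, of 14, 10 and 3 tested. In that comparison neutrophil, endothelial, adipocyte and erythroid lists had none called. Their part in the differences of the members was not tested.

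**Figure D4:**
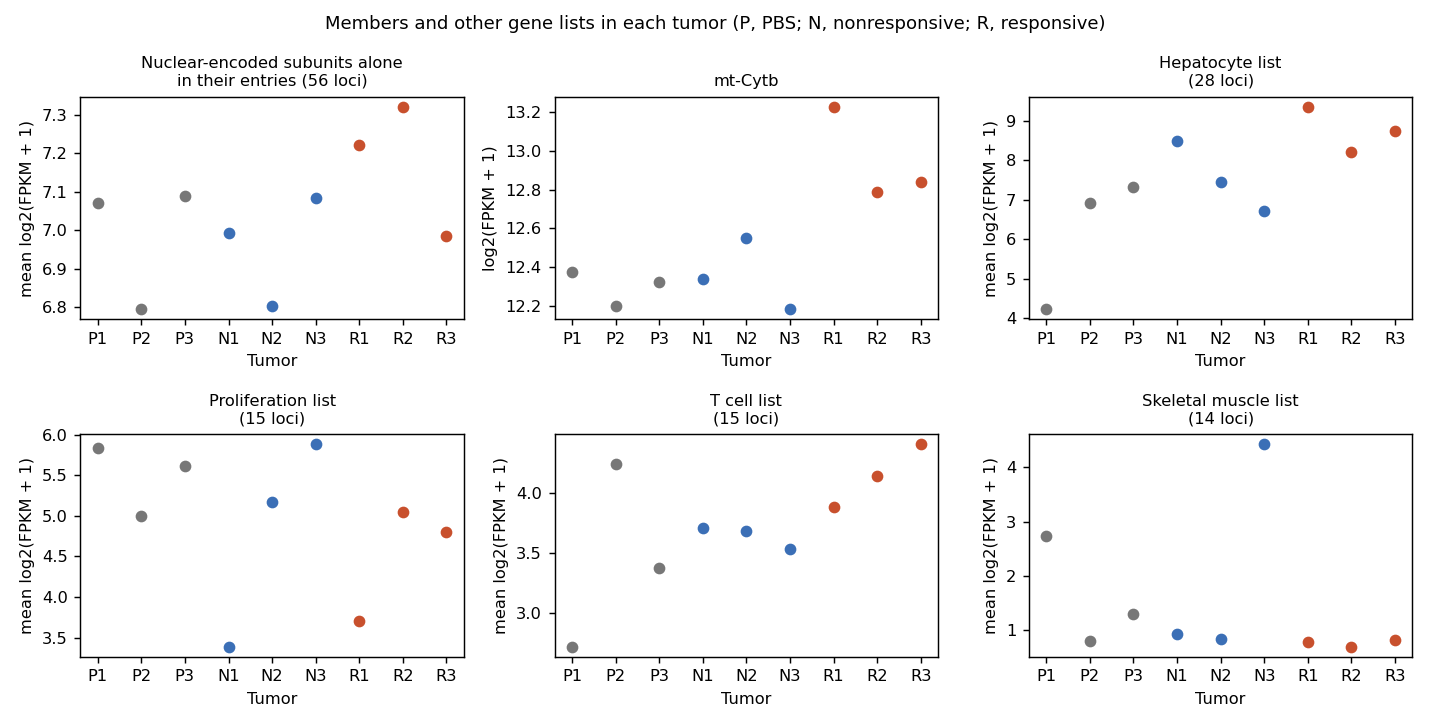
Mean log2(FPKM + 1) of the nuclear subunits alone in their entries and of 4 lists of other genes, and log2(FPKM + 1) of mt-Cytb, in each of the 9 tumors (each panel has its own vertical axis, which does not start at 0). Responsive tumor 3 lies below 4 of the 6 PBS and nonresponsive tumors in nuclear subunits, at 6.99, while its mt-Cytb, at 12.84, lies above all 6.

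The mean level of the nuclear subunits did not separate the groups tumor by tumor. Over the 56 loci alone in their entries it was 7.07, 6.79 and 7.09 in PBS, 6.99, 6.80 and 7.08 in nonresponsive, and 7.22, 7.32 and 6.99 in the responsive tumors on the log2(FPKM + 1) scale. Responsive tumors 1 and 2 were the highest of the 9, and responsive tumor 3 lay within the range of both other groups. The proliferation list was lowest in nonresponsive tumor 1 and responsive tumor 1, at a mean log2(FPKM + 1) of 3.39 and 3.70, against 4.80 to 5.88 in the rest.

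**Figure D5:**
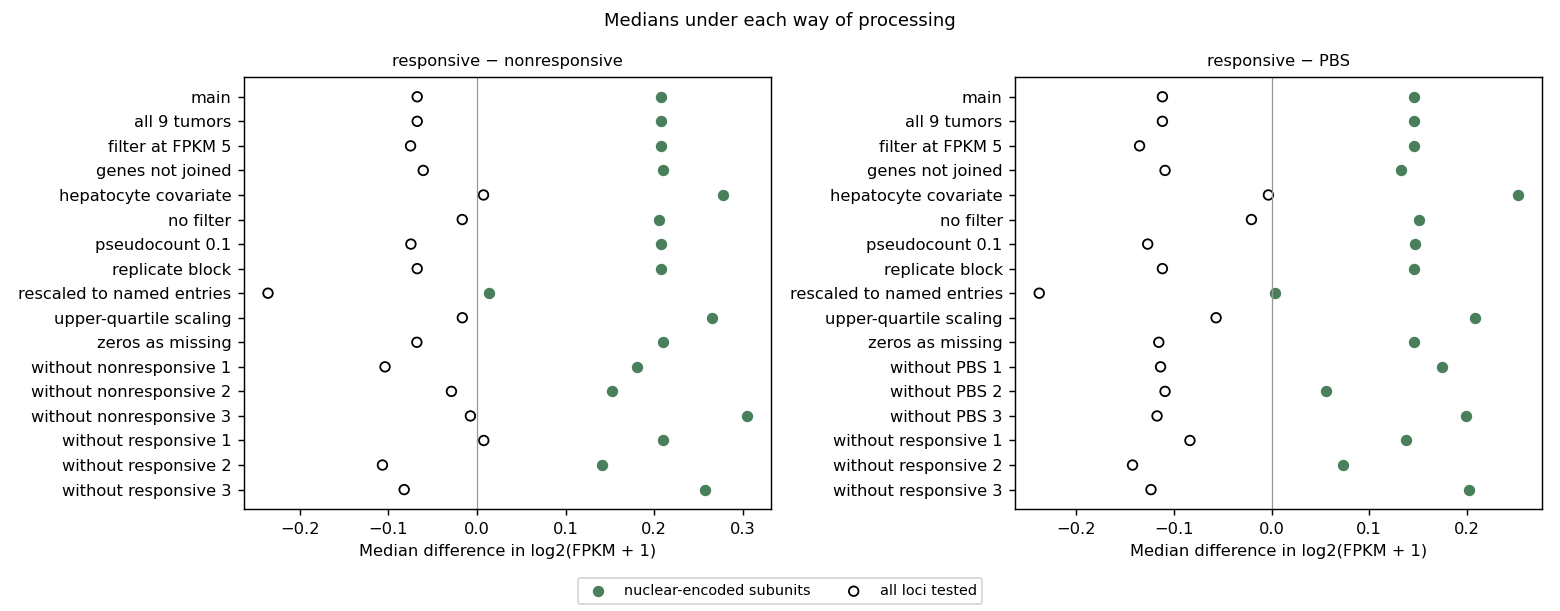
Median difference in log2(FPKM + 1) (horizontal axis) of the nuclear subunit loci (filled) and of all loci tested (open) as reported (main) and under each alternative (rows), for both comparisons of responsive tumors. The filled points stay to the right of the open points in every row and lie at 0.01 and 0.00 when tumors are rescaled to named entries. Scaling of whole tumors moves both points nearly alike, so their order there was bound to stay, and the rows use the same tumors.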

How the data were processed

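RNA of 9 whole tumors was sequenced, and the authors deposited 1 table per tumor of FPKM values with Cufflinks confidence limits. The submitters' processing notes name Bowtie2 2.2.4, TopHat2 2.1.1 and the build mm8. Positions of 9 of 98 members compared overlapped with GRCm38, so no position from the tables is printed. Entries naming a common gene in any tumor were joined into 48254 loci, and 7 loci with a failed status were left out. Loci of FPKM at least 1 in 3 or more of the 6 tumors of a comparison were tested on log2(FPKM + 1) with limma 3.58.1 (R 4.3.3, empirical Bayes with a trend), and p-values were adjusted by Benjamini-Hochberg over every locus tested. The pseudocount of 1 understates changes of low genes. Single values were also tested by exact two-sided permutation. The limma step was tested on simulated data. Depth is unknown, since the tables hold no counts. Genes named by rule were the 2 highest nuclear subunits of each complex, the mitochondrial genes, members past the adjusted threshold, the up to 5 largest changes per direction and comparison at an unadjusted p under 0.05 without overlap, isoform pairs and Sdha to Sdhd. Other genes were named after their values were seen. The members and lists were chosen with earlier results of these data known. The values of 1 gene that the rule names are not reported here.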

Additional observations from a re-analysis of the deposited data

How the results depend on the processing

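The alternatives were a pseudocount of 0.1, no filter, a filter at FPKM 5, upper-quartile scaling, rescaling to named entries, a fit of all 9 tumors, the hepatocyte level as a covariate, genes kept apart rather than joined, a replicate block, and each tumor left out. Zeros as missing and members alone in their entries were added after seeing the data. Rescaling to named entries moved the median between responsive and nonresponsive tumors from 0.21 to 0.0139 for nuclear and from 0.60 to 0.40 for mitochondrial subunits, and the mitochondrial median against PBS from 0.60 to 0.45. The count of members at an unadjusted limma p under 0.05 between responsive and nonresponsive tumors, 0 as reported, was 3 with all 9 tumors (3.23%, against 6.03% of all loci in that fit), 2 with the hepatocyte covariate (2.15%, against 10.2%), 1 with genes kept apart (1.08%, against 5.45%), and 0 to 5 with 1 tumor left out (at most 5.38%, against 2.46% to 11.4%). Against PBS the count, 9 for responsive tumors, was 15 with upper-quartile scaling (16.1%, against 18.5%), 2 after rescaling (2.15%, against 24.6%), 3 with the covariate (3.23%, against 4.68%), and 0 to 7 with 1 tumor left out (at most 7.61%, against 8.37% to 32.1%). For nonresponsive tumors against PBS it was 0 as reported, 2 with the covariate (2.13%, against 2.02%), 2 with zeros as missing (2.15%, against 3.46%), and 0 to 2 with 1 tumor left out (at most 2.13%, against 1.40% to 15.8%). Among the genes named by rule whose values are given, the difference of Cox6b2 between responsive and PBS tumors, at an unadjusted p under 0.05 as reported, turned to -0.29 with the covariate. With 1 tumor left out, 27 of 76 differences of these genes changed sign, and 0 of the 27 had an unadjusted p under 0.05 as reported. That 0 was fixed by the naming rule. Genes at that threshold were named where the groups did not overlap, and such a difference keeps its sign when 1 tumor is left out. Ndufa4l2 spanned most, from -2.45 to 0.10 for responsive against PBS and from -0.74 to 2.12 against nonresponsive tumors. The cause was not tested.

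The labels give the groups the same replicate numbers, but do not say what a number shares. Deviations of same-numbered tumors from their group means, over 12424 loci, correlated at 0.68, 0.04 and -0.05 between responsive and nonresponsive, -0.47, -0.50 and 0.16 between responsive and PBS, and -0.52, -0.09 and -0.27 between nonresponsive and PBS tumors, so the numbers were not taken as pairs. With the replicate block, the count of members at an unadjusted limma p under 0.05 was 0 in each comparison (against 7.63%, 7.78% and 1.70% of all loci), where 9 were counted without it for responsive tumors and PBS. With no counts in the files, the limit that depth sets on low genes cannot be given.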
